A study of Mus musculus with 4 samples.

Results

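The BAG family and the HSP70-type chaperones it works with were followed here through 10 genes, Bag1 to Bag6, Hspa8, Hspa9, Hspa4 and Hsph1, all matched by symbol among the 55339 genes of the deposited table. Expression had been measured by sequencing of polyadenylated RNA from leukemia cells of mouse bone marrow, strain C57BL/6, in 2 libraries labelled YBX1-/- in the genotype and cKO in the title (replicates 1 and 3, Ybx1 knockout below) and 2 labelled WT (replicates 4 and 5). The title of knockout replicate 3 has the run number 2, and the titles of the remaining 3 have 1. The labels used here give no age, no way in which the leukemia was made and no promoter or driver for the knockout, and they do not say that replicates came from separate mice, so spread between libraries may be technical. The genes were chosen with these columns known, Bag1 having stood out in them with knockout values well above both WT values. The levels of all 10 are therefore given as a description, without a test.

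HSP70 proteins fold other proteins in a cycle of ATP binding and hydrolysis. J-domain co-chaperones start hydrolysis and hand over the substrate, and nucleotide exchange factors release ADP so that the substrate is let go. Most BAG proteins are such exchange factors, with a BAG domain that holds the HSP70 ATPase domain. Other parts of these proteins steer the bound substrate towards folding, the proteasome or autophagy. The HSP110 proteins encoded by Hspa4 and Hsph1 are large relatives of HSP70 that also exchange its nucleotide. Many cancer cells depend on these chaperones for survival, and BAG1 was first described as a partner of the survival protein BCL2.

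Upstream sequences are shown for the genes with the widest differences from WT replicate 5, Bag1 and Hsph1 on the higher side and Bag6 on the lower. They come from RefSeq (GRCm38.p6), which matched 7 of the 10 genes, and were trimmed to bases outside the exons that GENCODE vM21 annotates. Capitals mark CCAAT boxes, written CCAAT or ATTGG, the element family through which Y-box proteins such as YBX1 were first found.
Bag1, chr4:40948295-40948406, minus strand: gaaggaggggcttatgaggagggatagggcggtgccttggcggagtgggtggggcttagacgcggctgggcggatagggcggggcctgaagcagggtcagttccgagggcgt
Hsph1, chr5:149636377-149636586, minus strand: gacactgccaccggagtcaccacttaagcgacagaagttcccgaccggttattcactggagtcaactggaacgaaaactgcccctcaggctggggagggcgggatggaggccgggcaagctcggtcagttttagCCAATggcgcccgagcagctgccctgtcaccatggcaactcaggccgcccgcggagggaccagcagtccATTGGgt
Bag6, chr17:35134963-35135177, plus strand: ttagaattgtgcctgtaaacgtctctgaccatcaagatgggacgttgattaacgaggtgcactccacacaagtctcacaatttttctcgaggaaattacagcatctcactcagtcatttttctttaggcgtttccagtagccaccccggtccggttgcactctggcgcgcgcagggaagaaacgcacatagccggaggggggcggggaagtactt
Bag1 and Bag6 hold no CCAAT box in these windows, and Hsph1 holds 2. In the full RefSeq windows, from 250 bases before to 50 after the start, CCAAT boxes were found on either strand in 37.4% of 32851 promoters. Among the 7 matched genes, Hsph1 alone had one.
A heat shock element, the binding site of the heat shock factors, is built from inverted NGAAN units. The form with 3 units (TTC, NN, GAA, NN and TTC in a row, or the reverse complement) occurred in 0.603% of the promoters and, of the 7 genes, in Hsph1 alone, from base 37 after the first of its RefSeq start sites. That short stretch lies in an annotated exon and is shown with the element in capitals.
Hsph1 element, chr5:149636287-149636308, minus strand: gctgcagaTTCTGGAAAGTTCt
The forms with 2 units were TTCNNGAA, in 8.52% of promoters, and GAANNTTC, in 7.86%. Both overlap the form with 3 units in Hsph1, where TTCNNGAA also stood 33 bases before the start. Bag3, a gene known to be induced by heat shock factor, had GAANNTTC at base 43 after its start. These are matches of letters, not measured binding sites.

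Ybx1 itself read 7.29 and 8.33 in knockout cells, compared with 19.70 and 10.002 in WT replicates 4 and 5, all on the deposited log2 scale, whose normalization is not given in the sources used here. Both knockout libraries were under both WT libraries, and some Ybx1 signal was left. Of 12 markers of myeloid cells 10 reached at least log2 5 in all 4 libraries, and the summed level of the 12 was 17.07 and 17.14 in knockout cells, compared with 24.52 and 16.80 in WT replicates 4 and 5. Markers of other cells were mostly low: Cd3e, Cd4 and Cd8a were listed at 0 in every library, and 0 of 8 erythroid, 1 of 7 B lineage, 0 of 8 T and NK, 0 of 5 megakaryocyte and 1 of 6 stromal and endothelial markers reached log2 5 in all 4. In bulk RNA fewer cells of a type and less RNA per cell cannot be told apart. The depth of the libraries is unknown, since no counts are given.

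WT replicate 4 decides how far WT can be read for these genes. Its values do not spread as those of the other libraries do but lie in separate bands. Of 8484 genes with a mean between log2 5 and 11 in the other 3 libraries, 4891 (57.6%) fell into the lowest band, and 0 lay within 0.2 of the line drawn above it. Inside that band a value of WT replicate 4 followed the mean of the other libraries along a smooth curve, with an SD of 0.11 around it, while WT replicate 5 minus the knockout mean had an SD of 0.83 in the same genes. WT replicate 4 was the lowest of the 4 libraries in 87.9% of these genes. At the other end 770 of the 8484 genes (9.08%) stood above log2 15 in this library.

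The lowest band held 6 of the 10 genes, namely Bag1, Bag2, Bag3, Bag4, Bag5 and Hsph1. Their values in WT replicate 4 were 5.65, 4.38, 5.44, 5.16, 5.56 and 5.40, and the curve through the band put them at 5.76, 4.81, 5.44, 5.31, 5.602 and 5.54. Bag2, near the lower end of the range, lay 0.43 below the curve, and the other 5 lay within 0.15 of it. For those 5 WT replicate 4 gives little beyond what the other libraries already fix, so each of the 6 is set below against WT replicate 5 as well, a single library without a replicate of its own. Hspa9, Bag6 and Hspa4 lay above the lowest band, and whether their values belong to a higher band was not tested. Hspa8 stood above log2 15 in WT replicate 4.

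**Figure D1:**
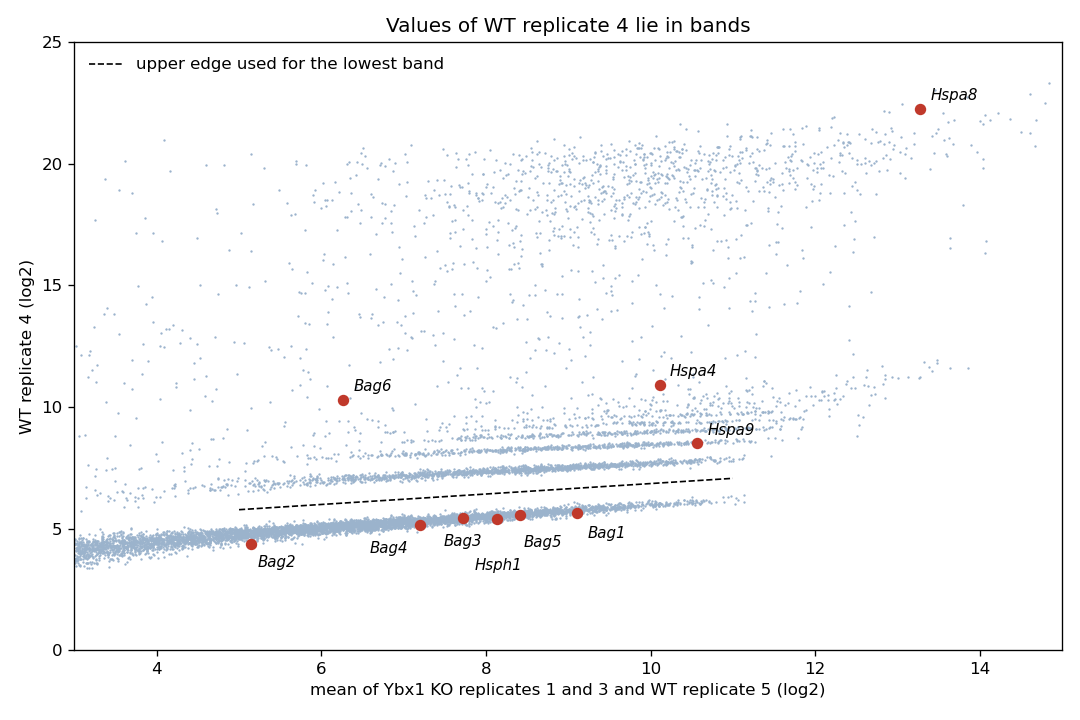
Deposited log2 value of each tested gene in WT replicate 4 (vertical) against its mean over both Ybx1 knockout libraries and WT replicate 5 (horizontal), with the 10 genes in red. Bag1 to Bag5 and Hsph1 sit in the lowest band, under the dashed line, and Hspa8 at 22.28 stands far above.

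Bag1 was higher in both knockout libraries than in either WT library. BAG1 carries a ubiquitin-like domain that brings HSP70 to the proteasome. The gene (chromosome 4, 40936398 to 40948294, minus strand, GRCm38) read 9.64 and 10.31 in Ybx1 knockout cells, against 5.65 and 7.38 in WT replicates 4 and 5. The groups did not overlap. Relative to WT replicate 5 alone the knockout mean of 9.98 ± 0.47 (SD, n = 2) was 2.59 log2 higher, a 6.03-fold difference, while the knockout libraries differed from each other by 0.66. Among 9044 genes with a mean level of at least log2 5, where the middle 90% of such differences ran from -1.27 to 1.20, Bag1 ranked 49 from the top. Among all 17303 tested genes it ranked 488. Bag1 was chosen with its high knockout values known, so both ranks partly follow from that choice. Without WT replicate 5 the difference was 4.32, which sets the knockout libraries against a lowest-band value.

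Bag1 shares its upstream region with Chmp5, which encodes a subunit of the ESCRT-III membrane remodelling complex and starts on the other strand 113 bases from the Bag1 start. The Bag1 sequence above is the whole stretch between them. Chmp5 was at 8.26 and 8.75 in knockout cells, against 5.69 and 8.92 in WT replicates 4 and 5. Its knockout mean was 0.42 log2 below WT replicate 5, where that of Bag1 was 2.59 above, and the difference between these neighbours was not tested. Chmp5 and Lsm1 are in the lowest band of WT replicate 4 and Apopt1 is above it. Bag4 and Bag5 also have a neighbour that starts within 1000 bases on the other strand. Lsm1, an mRNA decay factor gene beside Bag4, was at 8.57 and 8.71 in knockout cells, compared with 5.65 and 7.99 in WT replicates 4 and 5. Apopt1, beside Bag5, was at 6.41 and 6.66 in knockout cells, compared with 7.12 and 6.92 in WT replicates 4 and 5.

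**Figure D2:**
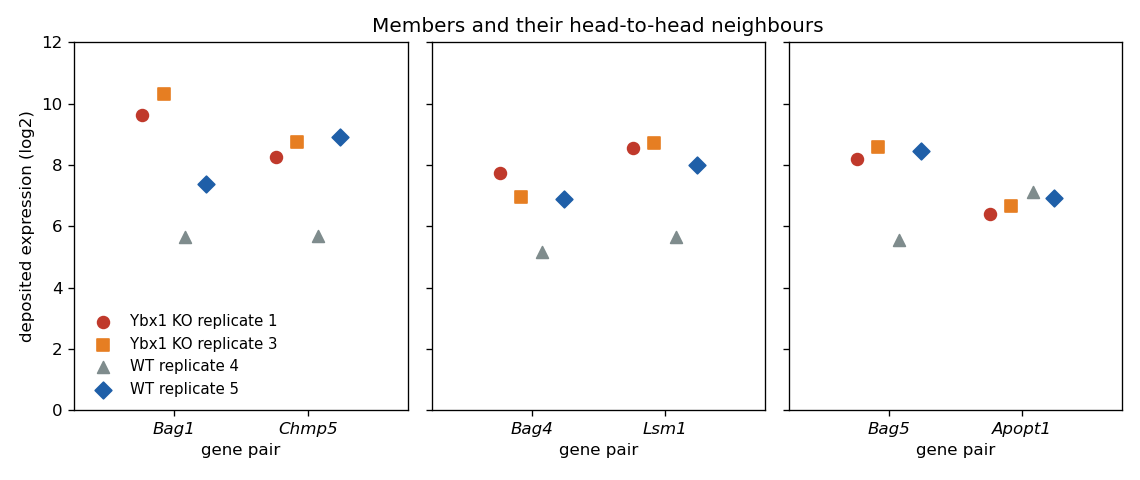
Deposited log2 expression of Bag1, Bag4 and Bag5 and of the gene that starts head to head with each, with 1 point per library and the Ybx1 knockout libraries left of WT. Bag1 in knockout stands above WT replicate 5 at 7.38, whereas Chmp5 in knockout stands below WT replicate 5 at 8.92.

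The genes with the pattern most like Bag1 over the 4 libraries, by root mean square difference of values centred on each gene's mean, were Gclm (0.29), Eif3b (0.40), Eif2b5 (0.45), Prss57 (0.46) and Scamp1 (0.47). Gclm, the regulatory subunit gene of the enzyme that starts glutathione synthesis, was at 9.31 and 10.01 in knockout cells, against 5.81 and 7.73 in WT replicates 4 and 5. Like Bag1, Gclm, Eif2b5, Prss57 and Scamp1 have a lowest-band value in WT replicate 4, and Eif3b lies above that band. With 4 libraries, of which WT replicate 4 holds band values for many genes, the likeness of these genes to Bag1 is a description of these columns.

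Bag6 was lower in knockout cells. BAG6 is a large chaperone that shields hydrophobic segments and passes tail-anchored membrane proteins to the GET pathway with UBL4A and GET4. Bag6 (chromosome 17, 35135178 to 35147322, plus strand) was at 5.56 and 6.16 in knockout cells, against 10.30 and 7.09 in WT replicates 4 and 5. Both knockout libraries were under both WT libraries, though WT values differed by 3.22 from each other. The knockout mean of 5.86 ± 0.42 (SD, n = 2) was 1.23 log2 below WT replicate 5, 2.34-fold lower, against a gap of 0.60 between the knockout libraries. Among the 9044 genes ranked above it stood 487 from the bottom, inside the middle 90%.

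The other 4 BAG genes showed no difference from WT replicate 5 wider than the gap between the knockout libraries. BAG2 inhibits the ubiquitin ligase CHIP, and Bag2 (chromosome 1, 33745484 to 33757795) was at 5.40 and 4.50 in knockout cells, compared with 4.38 and 5.54 in WT replicates 4 and 5. Knockout and WT values overlapped. Bag3, whose product sends aggregates to autophagy together with small heat shock proteins, lies on chromosome 7 (128523616 to 128546981) and was at 7.27 and 7.85 in knockout cells, compared with 5.44 and 8.06 in WT. Both knockout values lay between the WT values. BAG4 silences the TNF receptor TNFR1 by holding its death domain, and Bag4 (chromosome 8, 25764538 to 25785287) was at 7.73 and 6.95 in knockout cells, compared with 5.16 and 6.90 in WT replicates 4 and 5. The groups did not overlap, but knockout replicate 3 lay only 0.04 above WT replicate 5. Bag5 (chromosome 12, 111709488 to 111713257), which encodes a protein made of repeated BAG domains, was at 8.21 and 8.59 in knockout cells, compared with 5.56 and 8.46 in WT. WT replicate 5 lay between the knockout values. Bag2, Bag3 and Bag4 each overlap another annotated transcript, and the strand setting of the counting is not given in the sources used here.

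**Figure D3:**
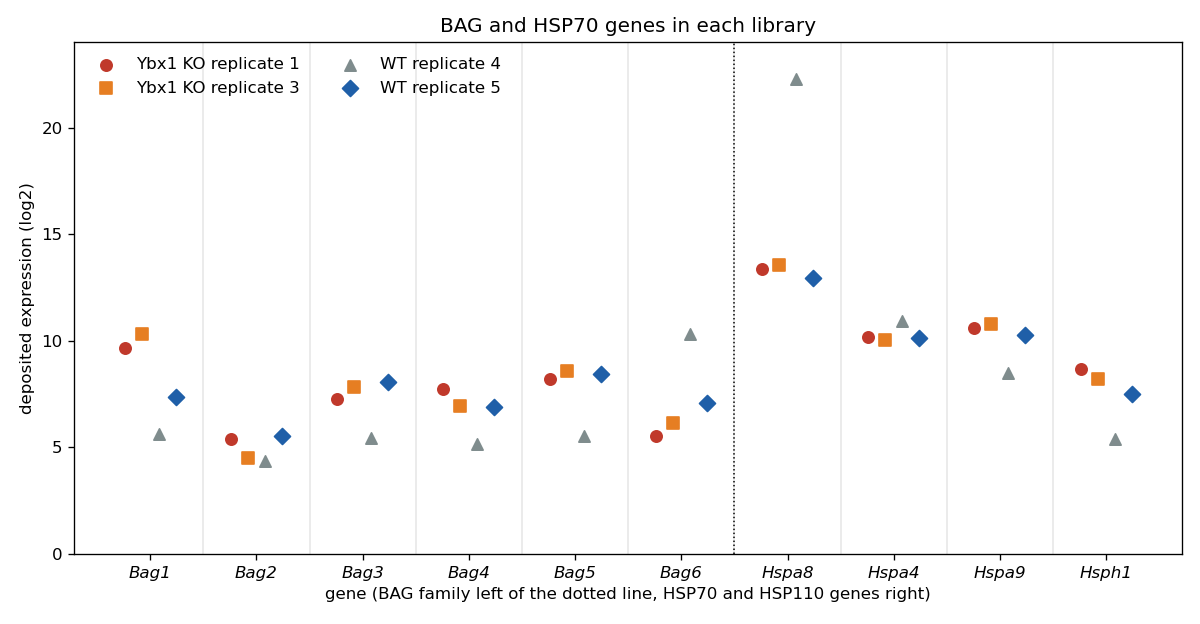
Deposited log2 expression of the 10 genes, with 1 point per library and the Ybx1 knockout libraries left of WT in each column. Both knockout points of Bag1 are above its WT points and both of Bag6 below, and WT replicate 4 lies lowest in 7 of the genes and highest in Bag6, Hspa8 and Hspa4.

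Of the HSP110 genes, Hsph1 was higher in knockout and Hspa4 was level with WT replicate 5. Hsph1, whose product HSP105 also suppresses aggregation under heat stress (chromosome 5, 149614287 to 149636376, minus strand), was at 8.70 and 8.21 in knockout cells, against 5.40 and 7.51 in WT replicates 4 and 5. The groups did not overlap, and the knockout mean of 8.45 ± 0.34 (SD, n = 2) was 1.92-fold above WT replicate 5. The Hsph1 sequence above is the one with CCAAT boxes and the heat shock element with 3 units. Whether these letter matches bear on its level was not tested. Hspa4 (chromosome 11, 53259814 to 53300457) was at 10.17 and 10.03 in knockout cells, compared with 10.92 and 10.13 in WT. All 4 values lay within 0.89 log2, and the knockout mean minus WT replicate 5 was -0.03.

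The HSP70 proper genes differed little once WT replicate 4 was set aside. Hspa8 encodes HSC70, the constitutive cytosolic HSP70 that most BAG proteins hold. Located on chromosome 9 (40800984 to 40810087, plus strand), it was at 13.36 and 13.55 in knockout cells, against 22.28 and 12.93 in WT replicates 4 and 5. Both knockout values lay between the WT values, and lay 0.43 and 0.62 above WT replicate 5. With all libraries the difference was -4.15, with WT replicate 4 at 9.35 above WT replicate 5, and after quantile normalization of the 4 libraries it was -0.17. The Hspa8 gene also spans 3 annotated snoRNA genes, and the Hspa9 gene overlaps 2. Hspa9, the mitochondrial HSP70 known as mortalin, pulls proteins into the matrix and lies on chromosome 18 (34937414 to 34954357). It was at 10.63 and 10.80 in knockout cells, compared with 8.50 and 10.27 in WT replicates 4 and 5, and the groups did not overlap. Relative to WT replicate 5 Hspa9 was 1.36-fold and Hspa8 1.44-fold higher, differences wider than the knockout gaps of 0.18 and 0.19 but with no second WT library near WT replicate 5 to compare with.

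Counted together, 4 of the 10 genes (Bag1, Bag4, Hspa9 and Hsph1) had both knockout values above both WT values, and 1 (Bag6) had both below. Over all 17303 genes tested these shares were 17.3% and 18.8%. Relative to WT replicate 5 alone 5 lay above and 3 below, beside 41.8% and 33.4% of all genes. Among the 9044 genes with a mean level of at least log2 5, which hold 9 of the 10, 30.2% lay above both WT values and 9.6% below both, and 39.2% lay above WT replicate 5 and 35.2% below it. The median difference from WT replicate 5 was 0.20 log2 over the 10 and 0.07 over all tested genes. Because the genes were chosen from these columns, nothing is read from the counts. Limma called 0 of the 17303 genes (0%) at a Benjamini-Hochberg adjusted p under 0.05, and 651 (3.76%) had an unadjusted p under 0.05.

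In the authors' deposited table the fold change is headed as WT against knockout, but Ybx1 has a log2 value of -9.50 there, so it is read as knockout over WT. At an adjusted p under 0.05 the authors' deposited table lists Bag1 higher, with a log2 fold change of 3.58, and Bag6 lower, with -2.79. The genes were chosen with the sample columns known, so these listings are not independent of that choice. In WT replicate 4 Bag1 held a lowest-band value of 5.65, and Bag6 stood at 10.30 against 7.09 in WT replicate 5. Of the 17185 tested genes with a fold change in the authors' deposited table, 0.157% are listed higher and 3.96% lower at the threshold of an adjusted p under 0.05. Hsph1, Hspa9 and Bag4 have log2 fold changes of 1.60, 1.57 and 1.22 in the authors' deposited table and did not reach it. For 3 of the 10, Bag5, Hspa4 and Hspa8, the authors' deposited table lists a p-value of 1, as it does for 9.01% of those genes. The listed log2 fold change of Hspa4 is -5.94 in the authors' deposited table, although its 4 sample values lie within 0.89 of each other. For Bag2, Bag3, Bag5 and Hspa8 the sign in the authors' deposited table is opposite to the difference from WT replicate 5. That difference leaves out WT replicate 4. With all 4 libraries the differences of Bag3, Bag5 and Hspa8 were 0.81, 1.39 and -4.15, with the sign listed by the authors. That of Bag2 was -0.006, against a listed log2 fold change of 0.14.

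Around the 10 genes, a network of 9 lists with 90 further symbols of chaperone, co-chaperone and partner genes was described, of which 87 were in the table and 80 were tested. Limma called 0 of the 80, with adjusted p-values from 0.826 to 0.986, and 1 had an unadjusted p under 0.05. The authors' deposited table lists 0 of the 80 as higher and 6 as lower at an adjusted p under 0.05, namely Hspa5, Hyou1, Dnajb6, Hsp90ab1, Hsp90b1 and Cct7. In WT replicate 4 these 6 stood between 14.66 and 22.11, and their knockout means differed from WT replicate 5 by -0.11 to 0.99. The median difference from WT replicate 5 was 0.05 log2, close to the 0.07 of all tested genes, with 34 genes (42.5%) above and 26 (32.5%) below that library in both knockout libraries, near the 41.8% and 33.4% of all tested genes. Against both WT libraries 22 of the 80 (27.5%) lay above and 14 (17.5%) below, beside 17.3% and 18.8% of all tested genes and 30.2% and 9.6% of those at log2 5 or more, a level that 68 of the 80 reach. Of the 22, 12 have a lowest-band value in WT replicate 4.

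The gene with the unadjusted p under 0.05 was Pink1, the mitochondrial kinase that recruits the ligase Parkin, from the list of BAG clients and autophagy partners. It was at 7.28 and 7.32 in knockout cells, against 4.98 and 4.85 in WT replicates 4 and 5, a limma difference of 2.38 (SE 0.64, adjusted p = 0.826). The groups did not overlap and both WT values were close, but that of WT replicate 4 is in the lowest band. In the same list Bcl2 was at 3.31 and 1.95 in knockout cells, compared with 3.04 and -0.26 in WT, and the groups overlapped. Tnfrsf1a, the TNFR1 gene that BAG4 acts on, was at 7.999 and 8.45 in knockout cells, compared with 5.68 and 8.79 in WT replicates 4 and 5. Over the 7 tested genes of the list the median difference from WT replicate 5 was 0.29.

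J-domain co-chaperones formed the largest list, with 12 of 22 genes (54.5%) above WT replicate 5 in both knockout libraries and 8 (36.4%) below, beside 41.8% and 33.4% of all tested genes, and a median of 0.16. Dnaja1, a main cytosolic partner of HSC70, was at 10.24 in both knockout libraries against 9.30 and 9.28 in WT, with a limma difference of 0.95 (SE 0.89, adjusted p = 0.826). Here too the WT values were close to each other, and that of WT replicate 4 is above the lowest band. Values of this library also lie in higher bands, and whether 9.30 is such a band value was not tested. Dnajb4 was at 5.93 and 6.47 in knockout cells and 5.07 and 5.39 in WT replicates 4 and 5. On the lower side Dnajb5 was at 3.26 and 4.93 in knockout cells, compared with 4.99 and 6.46 in WT replicates 4 and 5. Dnaja4 was at 2.78 and 1.70 in knockout cells and 3.46 and 2.85 in WT replicates 4 and 5.

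Chaperonin genes, whose products fold proteins inside a closed ring, numbered 10, of which 7 (70.0%) lay above WT replicate 5 in both knockout libraries and 1 below, beside 41.8% and 33.4% of all tested genes. Their median was 0.35 where that of all tested genes was 0.07, and nothing particular to the list is read from this. Hspe1, the mitochondrial ring's lid, was at 7.62 and 8.20 in knockout cells, compared with 5.56 and 6.98 in WT replicates 4 and 5. Tcp1, a subunit of the cytosolic ring, was at 10.49 and 10.29 in knockout cells and 16.89 and 9.87 in WT replicates 4 and 5. Cct2 and Cct3 differed from WT replicate 5 by 0.03 and -0.23. HSP90 and its co-chaperones had a median difference of 0.01 over 14 genes, from -0.47 for Fkbp5 to 0.28 for Ahsa1, an activator of the HSP90 ATPase. Cdc37, which brings kinases to HSP90, lay 0.17 above WT replicate 5, and St13, which holds HSP70 in its ADP-bound state, 0.42 below it.

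Exchange factors other than the BAG and HSP110 genes above had a median of -0.28 over 6 genes. Hyou1, the HSP110 relative of the endoplasmic reticulum, was at 7.93 and 8.15 in knockout cells, compared with 14.66 and 7.05 in WT replicates 4 and 5, and is listed lower in the authors' deposited table with a log2 fold change of -5.55. The mitochondrial exchange factors Grpel1 and Grpel2 differed from WT replicate 5 by 0.34 and -0.35, and Hspbp1 by -0.46. Among 8 other HSP70 genes the median was -0.14, with Hspa2 at 9.17 and 11.73 in knockout cells, compared with 20.61 and 11.96 in WT replicates 4 and 5. Hspa13 was at 8.93 and 8.34 in knockout cells and 5.49 and 8.29 in WT replicates 4 and 5. Hspa12a and Hspa12b were below log2 5 in every library. The stress-induced HSP70 genes Hspa1a and Hspa1b are near-identical copies between which the counting could split reads, so their values are uncertain. Hspa1a read 5.89 and 5.15 in knockout cells, compared with 5.14 and 5.80 in WT, and Hspa1b read 0.70 and 2.69 in knockout cells, compared with 4.46 and 2.82 in WT.

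BAG6 partners lay within 0.45 of WT replicate 5. Get4 was at 10.09 and 10.22 in knockout cells, compared with 8.52 and 9.70 in WT replicates 4 and 5. Ubl4a was at 9.72 and 10.32 in knockout cells and 8.45 and 9.81 in WT, and Asna1 at 9.71 and 9.61 in knockout cells and 5.90 and 9.72 in WT. Sgta, which hands tail-anchored proteins to the BAG6 complex, was at 10.19 and 10.10 in knockout cells and 8.48 and 10.32 in WT. Their median difference from WT replicate 5 was 0.04 over 6 genes, where Bag6 itself had -1.23. The heat shock factor gene Hsf1 was at 9.56 and 8.87 in knockout cells, compared with 5.95 and 9.20 in WT, with WT replicate 5 between the knockout values. Hsf2 was 0.39 below WT replicate 5, which is also the median of the 3 heat shock factor genes (-0.39), and Hsf4 was 1.06 below at low levels. Of the 9 genes listed as small heat shock proteins 4 were tested, with a median difference of 1.79 from WT replicate 5. Of these 4, 0 had a mean level of at least log2 5, so the median comes from low values. Hspb8, the BAG3 partner, was listed at 0 in all 4 libraries. Hspb6 was at 5.19 and 2.28 in knockout cells, compared with 4.29 and -0.26 in WT, and Cryab at 4.05 and 2.16 in knockout cells, compared with 3.37 in WT replicate 4 and a value near 0 in WT replicate 5, both with overlapping groups, while Hspb1 and Hspb11 differed from WT replicate 5 by 0.17 and 0.48.

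**Figure D4:**
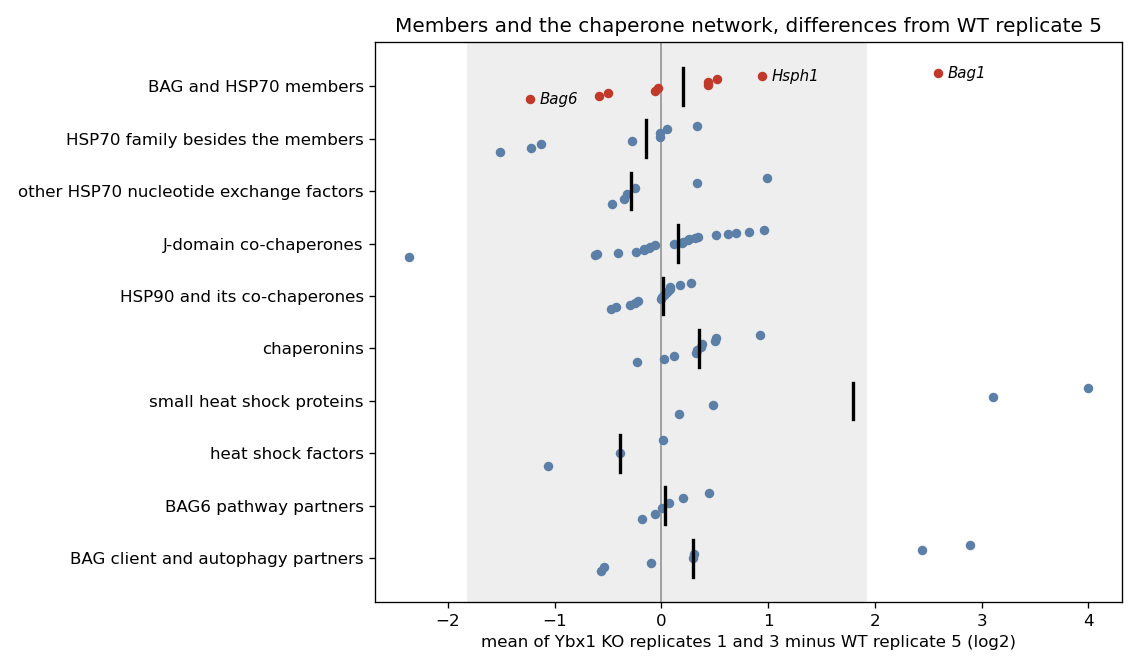
Mean of both Ybx1 knockout libraries minus WT replicate 5 (log2) for the 10 genes in red and the 9 lists of network genes in blue, with 1 point per gene, a black bar at each median and grey for the middle 90% of all tested genes, -1.81 to 1.91. Bag1 at 2.59 lies outside the grey range and the other 9 red points inside it.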

How the data were processed

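Polyadenylated RNA of 4 libraries was sequenced by the authors. Tools listed in the submitters' processing notes, without role or order, are DESeq2, featureCounts, HISAT2 2.1.0 and CASAVA, and the build is GRCm38. The authors deposited 1 table with normalized log2 expression per library, by a method not given in the sources used here. For each gene the authors also deposited a log2 fold change with its p-value, raw and adjusted. No counts are given, so depth is unknown and no count test could be run. Fold changes are on this scale, which may understate changes of low genes. The 30280 rows at 0 in all libraries were left out, and the test took the 17303 genes that reached log2 0 in at least 2 libraries.

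The deposited log2 values of the whole table were fitted with limma 3.58.1 (R 4.3.3), using its mean-variance trend, with Benjamini-Hochberg adjustment. Its steps were tested on simulated data with an equal spread in every library. The simulated data had no bands like those of WT replicate 4, so they do not show how limma behaves with that library. A call is an adjusted p under 0.05. Differences are knockout minus WT. Locations come from GENCODE vM21 (GRCm38). The genes, lists and tests were chosen with earlier results of these data known, and the line above the lowest band of WT replicate 4 was set after its values were seen. Named were all 10 genes, Ybx1, from each list the 2 genes highest and the 2 lowest against WT replicate 5 (all where 4 or fewer were tested), and the 5 genes most like Bag1. 1 gene that this rule names is not reported here. Hspa1a, Hspa1b, Hspb8, the 6 network genes called by the authors, the head-to-head neighbours and the markers were named after their values had been seen. Alternatives left out each library or changed scaling, pseudocount (1 and 0.5), filter and variance trend.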

Additional observations from a re-analysis of the deposited data

How the results depend on the processing

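No paired analysis was possible because the groups share no replicate number. Limma called 0 genes under every alternative that kept all 4 libraries and without WT replicate 4, but between 0 and 4960 when 1 library was left out, with 4960 without WT replicate 5, 26 without knockout replicate 1 and 88 without knockout replicate 3. The number of the 10 genes with both knockout values above WT was 4 with all libraries and 4 to 7 with 1 library left out, 7 without WT replicate 5. The number below was 1 with all libraries and 1 to 3 with 1 left out, 2 without knockout replicate 1 and 3 without either WT library, also 3 without WT replicate 4 after centring or quantile normalization, alternatives chosen after seeing the data. The median difference of the 10 ran from 0.20 without WT replicate 4 to 2.15 without WT replicate 5, around 1.06 with all libraries, and that of the network lists from 0.05 to 0.81, around 0.65.

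Of 130 differences of single genes over 13 alternatives, 116 kept the sign they had with all libraries. Bag1, Bag4, Bag6, Hspa9 and Hsph1 kept it under all 13, with Bag1 between 2.57 and 4.32. Hspa8 turned to 0.52 without WT replicate 4, from -4.15 with all libraries, Bag3 to -0.50 and Bag5 to -0.06. Quantile normalization of all 4 libraries put Hspa8 at -0.17 and turned Hspa4 to 0.33. Centring moved the median difference of all tested genes to -0.23 and quantile normalization to 0.16, against -0.09 as deposited. Among the 9144 genes left by the filter of log2 5 it was 0.60, beside the 1.06 of the 10 genes. The cause of these shifts was not tested. With a single WT library left, its spread is assumed to match that of the knockout pair.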

Other observations

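Among the network genes, 7 had a log2 fold change under -2 in the authors' deposited table although their sample columns gave a knockout mean above both the WT mean and WT replicate 5. They were Grpel1, Ahsa1, Cct2, Cct5, Hspe1, Hsf1 and Get4. Grpel1 was at 10.45 and 10.66 in knockout cells, against 9.70 and 10.22 in WT replicates 4 and 5, and its log2 fold change in the authors' deposited table is -5.43. Over all tested genes 533 of the 5988 with such a listed fold change showed this disagreement, and 199 of the 533 have a p-value listed as 1 in the authors' deposited table. None of the 10 BAG and HSP70 genes is among the 533. Hspa4 falls outside because its differences from the WT mean and WT replicate 5 were -0.42 and -0.03. Its listed log2 fold change is -5.94. How the fold changes and the sample columns came to differ was not tested.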
